A study of Homo sapiens with 6 samples.

Results

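The 9 genes described here encode proteins that hold epithelial cells together: EPCAM, the claudins CLDN1, CLDN3, CLDN4 and CLDN7, occludin (OCLN), junctional adhesion molecule A (F11R), the zonula occludens scaffold ZO-1 (TJP1) and E-cadherin (CDH1). They were taken by symbol from the 34594 entries of an expression array table, in which EPCAM is listed under its older symbol TACSTD1. Each symbol matched 1 entry, and a further entry listed as EPCAM was taken as the same gene. Whether that entry comes from another probe is not stated in the labels or the table.

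The table holds 6 Illumina bead arrays of human prostate cancer cells, 1 for each combination of 2 subclones and 3 conditions. Both subclones, 1E8 and 2B4, were derived from PC-3M, a metastatic variant of the PC-3 line, and are known for high (1E8) and low (2B4) metastatic capacity. The groups were 1E8 without added ATP, 1E8 with 100 µM ATP for 6 h, 1E8 with 100 µM ATP for 12 h, and 2B4 under the same conditions (control, 6 h and 12 h), all grown in medium with fetal bovine serum. Each subclone is a single clone, each group had 1 array, and the labels do not say after which of these times the controls were taken. An effect of ATP and one of hours in culture cannot be told apart.

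Tight junctions seal the space between neighbouring epithelial cells. Claudins form their strands, occludin and JAM-A lie beside them, and ZO-1 ties all of these to actin. Below them, adherens junctions are built on E-cadherin, whose cytoplasmic tail binds actin through beta-catenin and alpha-catenin. EPCAM is an adhesion molecule of epithelia that forms complexes with claudin-7 and protects claudins from degradation, and it is widely used to capture carcinoma cells. Carcinoma cells that turn mesenchymal commonly lose E-cadherin, EPCAM and claudins, through repressors such as SNAI2, ZEB1 and ZEB2.

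Array intensities are linear, with the background already subtracted, so that a dim gene can have a value below 0. For each array a detection limit was set at the peak of the dim values plus 3 times their spread on the lower side of the peak. It was 29.8 on the 1E8 control array and between 43.6 and 52.5 on the other 5. Between 9406 and 11228 entries lay above it, the most on the 1E8 control array. Of 5 epithelial keratins KRT8, KRT18 and KRT19 were above the limit on every array, as were the mesenchymal filament gene VIM and the prostate transcription factor HOXB13. The prostate protease KLK3 (PSA), which PC-3 cells are known to lack, was under it on every array. None of 4 leukocyte or 4 fibroblast markers was above the limit on any array. Of 4 endothelial markers only the adhesion molecule PECAM1 was, with intensities of 54.3 to 102 over the 6 arrays.

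Promoter sequences are shown for CLDN1 and CLDN3, the claudins of this set that were above the limit on 1E8 arrays only. They are also shown for CLDN4, whose window lies 60.2 kb from that of CLDN3 on chromosome 7, and for CLDN7, the partner of EPCAM. CLDN4 and CLDN7 were under the limit on every array. Of the 9 genes, 6 were found in RefSeq's promoter table (GRCh38.p14), and EPCAM, F11R and CDH1 were not. Each sequence is the 250 bases before the annotated start, read 5′ to 3′ on the strand of the gene. Capitals mark the GC box, GGGCGG or its reverse complement CCGCCC, which transcription factors of the SP family bind, and the E-box CAGGTG or its reverse complement CACCTG, which SNAI and ZEB repressors bind. The windows are chr3:190322447-190322696 (minus strand) for CLDN1, chr7:73770271-73770520 (minus strand) for CLDN3, chr7:73830746-73830995 (plus strand) for CLDN4 and chr17:7262479-7262728 (minus strand) for CLDN7, which has 2 windows in the table, shown here by the one that holds motifs.
CLDN1: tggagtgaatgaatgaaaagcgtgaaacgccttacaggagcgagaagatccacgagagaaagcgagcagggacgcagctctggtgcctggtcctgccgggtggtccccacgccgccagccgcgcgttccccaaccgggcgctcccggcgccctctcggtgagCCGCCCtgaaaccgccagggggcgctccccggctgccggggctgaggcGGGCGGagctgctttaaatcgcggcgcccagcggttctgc
CLDN3: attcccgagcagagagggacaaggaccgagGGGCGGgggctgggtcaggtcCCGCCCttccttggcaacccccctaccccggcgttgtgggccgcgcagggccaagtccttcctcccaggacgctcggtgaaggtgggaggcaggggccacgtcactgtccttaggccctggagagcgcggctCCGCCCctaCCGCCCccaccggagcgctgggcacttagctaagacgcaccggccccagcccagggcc
CLDN4: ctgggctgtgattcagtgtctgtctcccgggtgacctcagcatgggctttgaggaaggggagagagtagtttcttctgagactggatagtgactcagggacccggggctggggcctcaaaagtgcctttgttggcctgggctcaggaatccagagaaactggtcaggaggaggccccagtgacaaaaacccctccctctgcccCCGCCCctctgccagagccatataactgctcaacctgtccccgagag
CLDN7: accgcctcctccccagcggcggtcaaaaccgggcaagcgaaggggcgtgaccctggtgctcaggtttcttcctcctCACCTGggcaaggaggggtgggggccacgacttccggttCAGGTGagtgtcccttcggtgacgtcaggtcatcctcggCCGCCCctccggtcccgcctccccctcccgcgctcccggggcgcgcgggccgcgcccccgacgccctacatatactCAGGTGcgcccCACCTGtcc
The GC box occurred 2 times in the CLDN1 window, 4 times in that of CLDN3 and 1 time each in those of CLDN4 and CLDN7, and 42.6% of 34788 promoter windows of this length held it at least once. CpG dinucleotides numbered 28 for CLDN1, 19 for CLDN3, 4 for CLDN4 and 25 for CLDN7, against a median of 11 over all windows. The E-box occurred 4 times in the CLDN7 window and in none of the other 3, and 17.5% of all windows held it. It was also found in windows of OCLN and TJP1, which are not shown, but not in the other CLDN7 window. No match overlapped another. These letters describe the sequence and do not show that a factor binds there.

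EPCAM, CLDN1 and CLDN3 were higher in 1E8 than in 2B4, and TJP1 was higher by a smaller margin. F11R did not pass the test, and E-cadherin, occludin, CLDN4 and CLDN7 were under the detection limit on every array. Differences were tested with limma on log2(intensity + 16), with intensities below 0 set to 0, in an additive model of subclone and condition over all 6 arrays. Its 3 conditions stand in for replicates, and its error is the departure of the arrays from that model, which may be technical. In such bulk RNA, fewer cells that express a gene and less of its RNA in each cell cannot be told apart. Of the 9 genes 5 were above the limit on at least 1 array and were tested among 11096 entries. Over these, 1018 entries or 9.17% were called higher in 1E8 at a Benjamini-Hochberg adjusted p under 0.05 and 885 or 7.98% lower, and of the 5 genes 4 were called higher and 0 lower. CLDN1 and CLDN3 entered the test through their 1E8 arrays alone, which favours a higher value in 1E8. Their calls are thus not separate evidence of a difference. TACSTD1, F11R and TJP1 were measured on all 6 arrays. Among all 8492 such entries, 6.79% were called higher in 1E8 and 7.65% lower. Of the keratins above the limit on every array, KRT8 was also higher in 1E8, by 1.01 ± 0.20 (limma adjusted p = 0.0188). KRT18 and KRT19 were not called, at -0.22 and -0.35. KRT7 was called higher as well, at 1.42 (limma adjusted p = 0.00122), but was above the limit on the 1E8 control array alone. HOXB13 was higher by 0.64 ± 0.12 (adjusted p = 0.0144), and the part of such differences between the clones in the values below was not tested.

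**Figure D1:**
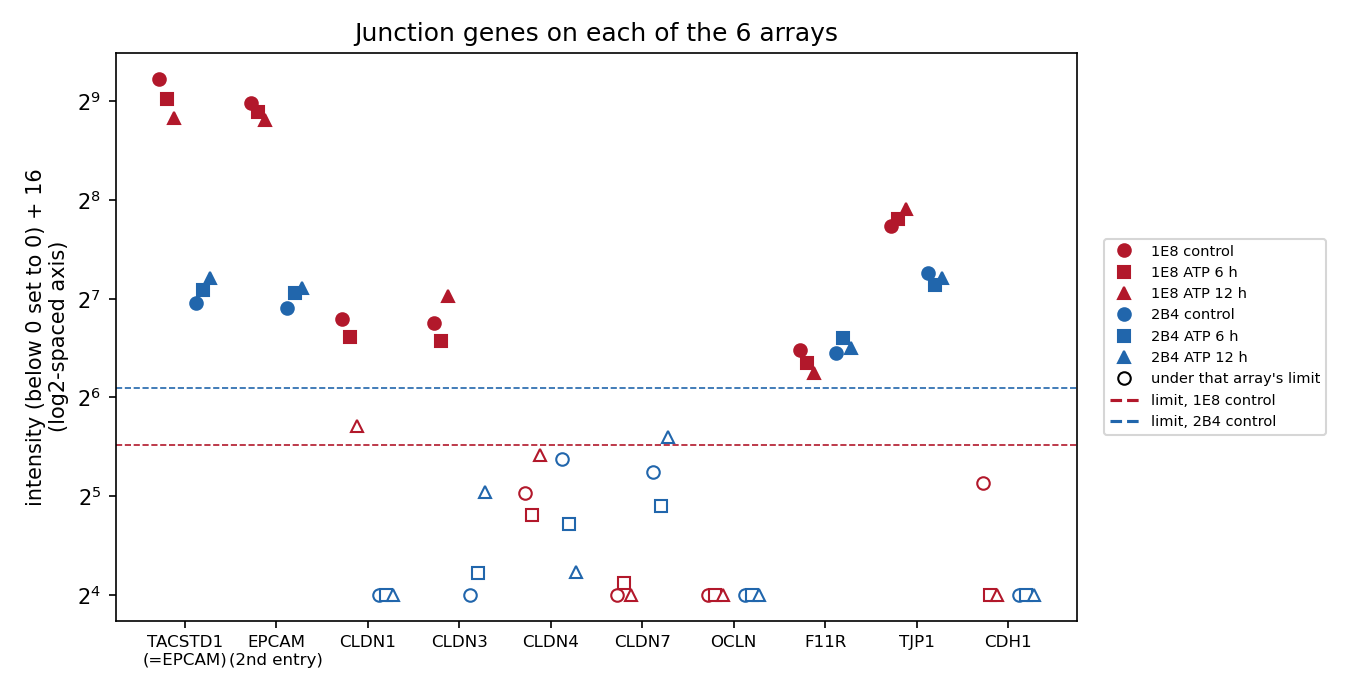
Intensity of the 9 genes, and of the second EPCAM entry, on each of the 6 arrays, as intensity + 16 with values below 0 set to 0, on a log2-spaced axis, with 1E8 left of 2B4 within each gene. Open symbols lie under the limit of their own array and dashed lines give the limits of the control arrays. Probes differ in brightness, so heights compare arrays within a gene and not genes with each other. TACSTD1, the second EPCAM entry, TJP1, CLDN1 and CLDN3 have every 1E8 point above every 2B4 point, as 18.9% of the tested entries do. The 2B4 points of CLDN1 and CLDN3 are open, and CDH1, OCLN, CLDN4 and CLDN7 have open symbols throughout.

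EPCAM, read as TACSTD1, had intensities of 584, 506 and 439 in 1E8 (control, ATP 6 h and ATP 12 h) and of 108, 120 and 132 in 2B4. The means were 509 ± 72.7 in 1E8 and 120 ± 12.1 in 2B4 (SD over 3 arrays, which differ in condition). Every 1E8 array lay above every 2B4 array, as 18.9% of the tested entries did. In intensity, 1E8 over 2B4 came to 5.40 times in the controls, 4.22 times at 6 h and 3.31 times at 12 h. The log2 difference was 1.94 ± 0.15 (SE of the fit), with a 95% interval of 1.60 to 2.29 and a limma adjusted p of 0.00065. It ranked 41 from the top among the 11096 entries. The second entry had intensities of 491, 458 and 433 in 1E8 and of 104, 117 and 122 in 2B4. Its log2 difference was 1.87 ± 0.12 with a limma adjusted p of 0.000332 when it was fitted in place of TACSTD1.

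CLDN1, a claudin of many epithelia and of the epidermal barrier, had intensities of 94.8, 82.0 and 36.2 in 1E8 (control, ATP 6 h and ATP 12 h) and of -19.7, -17.1 and -20.9 in 2B4. It was above the limit on the control and 6 h arrays of 1E8 and on no array of 2B4. Against the limit of the matched 2B4 array, 1E8 was at least 1.80-fold higher in the controls and at least 1.81-fold higher at 6 h. The fitted log2 difference, 2.37 ± 0.21 (limma adjusted p = 0.00113), rests on 2B4 values set to 0 and depends on the offset. With intensities raised to a floor of 50 it came to 0.55, with an adjusted p of 0.299.

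CLDN3, which like CLDN4 is a receptor of Clostridium perfringens enterotoxin, had intensities of 92.2, 79.1 and 114 in 1E8 and of -0.64, 2.67 and 16.9 in 2B4. All 3 arrays of 1E8 were above the limit and none of 2B4 was. Over the 3 conditions 1E8 was at least 2.00-fold higher, taking the limits of the 2B4 arrays in place of their values, and the fit gave a limma adjusted p of 0.000416. The bound was 1.76-fold in the controls, 1.74-fold at 6 h and 2.61-fold at 12 h. The fitted log2 difference of 2.36 ± 0.16 depends on the offset in the same way as that of CLDN1, and it came to 0.91 with an adjusted p of 0.0789 at a floor of 50.

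TJP1, the ZO-1 scaffold, had intensities of 198, 207 and 224 in 1E8 and of 138, 125 and 132 in 2B4. Every 1E8 array lay above every 2B4 array, as for 18.9% of the tested entries. In intensity, 1E8 over 2B4 came to 1.44 times in the controls, 1.66 times at 6 h and 1.70 times at 12 h. The log2 difference was 0.61 ± 0.11, with a 95% interval of 0.35 to 0.87 and a limma adjusted p of 0.0135. That call was lost without any 1 of the 4 ATP arrays, at an adjusted p of 0.0616 (log2 difference 0.59) or 0.0694 (0.57). F11R, whose product JAM-A joins homophilic contacts at the tight junction, had 73.4, 65.7 and 59.8 in 1E8 and 71.3, 81.0 and 74.7 in 2B4. These groups overlapped, and the log2 difference was -0.16 ± 0.12 (95% interval -0.43 to 0.12, limma adjusted p = 0.392).

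The calls depended on how dim entries were treated. With no filter on dim entries limma called 0 of 30835 entries between the subclones (4567 at an unadjusted p under 0.05), and TACSTD1, at the same log2 difference, then had an adjusted p of 0.12. With the floor of 50, TACSTD1 was the single one of the 9 genes that was called.

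E-cadherin (CDH1) had intensities of 19.0, -5.31 and -5.69 on the control, 6 h and 12 h arrays of 1E8, while the 2B4 arrays had -12.6, -9.05 and -9.84. Its highest value lay under the limit of its own array, 29.8, so E-cadherin mRNA was not detectable with this probe in either subclone, and no fold is given. CLDN4 was between 2.79 and 26.6 over the 6 arrays, and OCLN below 0 on all of them, between -11.2 and -4.25. CLDN7, the claudin that pairs with EPCAM, had -6.93, 1.39 and -3.57 in 1E8 and 21.8, 13.8 and 32.5 in 2B4. Its 2B4 values were the higher ones in every condition, but all 6 lay under their limits and have no tested order. Of the genes by which the set is named, EPCAM and some claudins were thus measured, and E-cadherin was not.

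With ATP, none of the 5 tested genes was called against control, at 6 h, at 12 h or between the times. limma called 0% of the 11096 entries in each of these 4 contrasts. At an unadjusted p under 0.05 there were 1133 entries for ATP against control, 1090 at 6 h, 1015 at 12 h and 770 between the times. Of the 5 genes 1, CLDN3, was among those at 12 h and between the times, and 0 in the other 2 contrasts.

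CLDN1 had the lowest ATP value of the 5, a log2 difference of -0.32 ± 0.22 for the mean of both times against control (limma adjusted p = 0.652). At 6 h it was at -0.09 ± 0.26 (limma adjusted p = 0.949). At 12 h it was at -0.54 ± 0.26, with a limma adjusted p of 0.586, and the 12 h value against 6 h was -0.45 ± 0.26 (adjusted p = 0.826). These values average the change in 1E8 with 0 for 2B4, since CLDN1 was at 0 after flooring on every 2B4 array. The log2 difference from control in 1E8 alone was -0.18 at 6 h and -1.08 at 12 h. In 1E8 its intensity of 36.2 at 12 h lay under the limit of 50.4, against 82.0 at 6 h and 94.8 in the control. The 12 h array was thus at least 1.88-fold lower than the control array and at least 1.63-fold lower than the 6 h array, for single arrays with no replicate check. Without the 12 h array of 1E8 the fitted 12 h value came to -0.04, and without the control of 1E8 the ATP value was 0.00.

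CLDN3 had the highest ATP value, 0.34 ± 0.17 (limma adjusted p = 0.534), with 0.02 ± 0.19 at 6 h (adjusted p = 0.988) and 0.65 ± 0.19 at 12 h (adjusted p = 0.477). In 1E8 its intensity with ATP was 0.859 times that of the control at 6 h and 1.24 times at 12 h. Its 2B4 arrays contribute to the fit although all 3 were under the limit. With a floor of 50 the 12 h value came to 0.15. Without 1 array the 12 h value lay between 0.36, without the 2B4 control, and 0.95, without the 1E8 control. The value for both times lay between 0.04 and 0.63 in the fits without these controls.

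**Figure D2:**
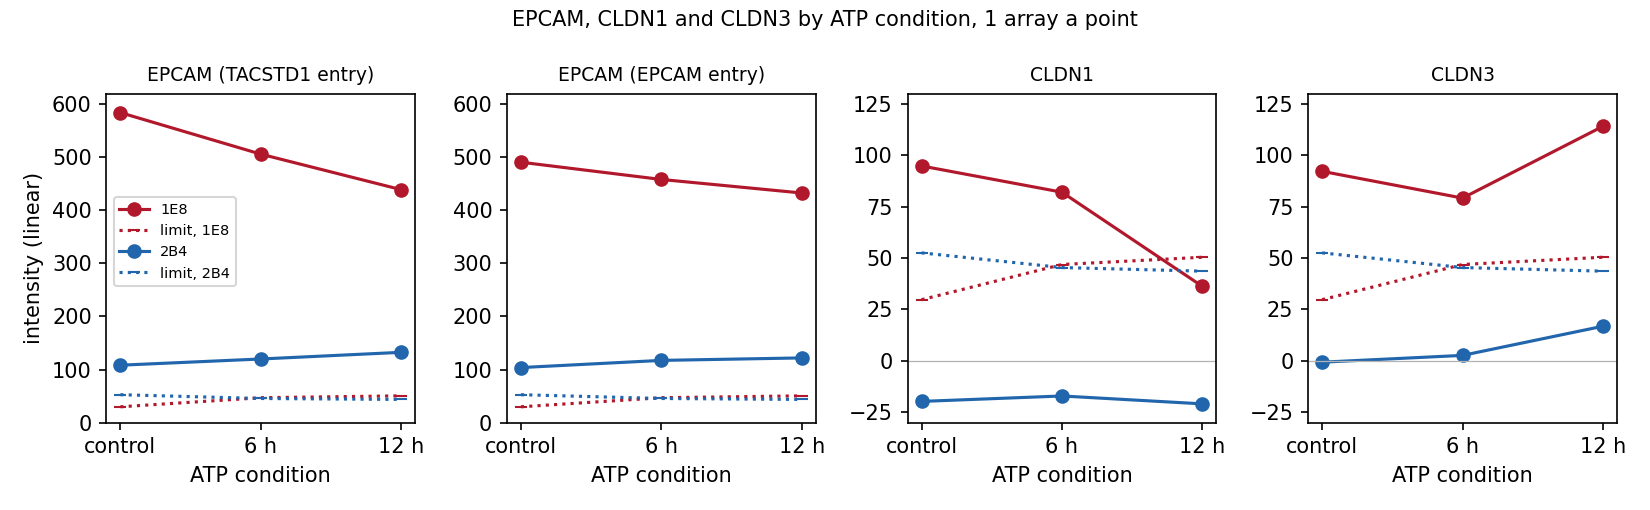
Linear intensity of both EPCAM entries, CLDN1 and CLDN3 in the control, at 6 h and at 12 h of ATP, 1 array a point, with 1E8 in red, 2B4 in blue and the detection limit of each array dotted. TACSTD1 is at 584, 506 and 439 in 1E8 and at 108, 120 and 132 in 2B4 over the 3 conditions, and CLDN1 in 1E8 lies under its limit at 12 h.

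EPCAM had lower values with ATP than without in 1E8 and higher ones in 2B4, by differences that did not pass the test. In 1E8 its TACSTD1 intensity was 0.866 times the control at 6 h and 0.751 times at 12 h, and in 2B4 it was 1.11 times and 1.22 times the control. The second entry came to 0.934 and 0.882 times the control in 1E8 and to 1.13 and 1.18 times in 2B4. The difference of the ATP effects, 1E8 minus 2B4, was -0.49 ± 0.21 on the log2 scale for TACSTD1 (95% interval -1.02 to 0.03, limma adjusted p = 0.283) and -0.31 ± 0.18 for the second entry (adjusted p = 0.397). This test has 1 residual degree of freedom, both ATP arrays of a subclone share its control, and 1 of 11096 entries (0.00901%) was called, with 2087 at an unadjusted p under 0.05; the called entry was not among these genes. The median of all entries was -0.07 in this contrast and 0.05 once arrays were scaled to the same median, where TACSTD1 came to -0.36. Under that scaling and after quantile normalization the second entry was slightly higher than control in 1E8 at 6 h, by a log2 of 0.02 and 0.01, while both entries stayed lower at 12 h. Of the other 4 genes, CLDN1 was at -0.63, CLDN3 at -0.59, F11R at -0.29 and TJP1 at 0.21, with limma adjusted p from 0.245 to 0.559. At an unadjusted p under 0.05 there was 1 of the 5 in this contrast, CLDN3, whose value rests on 2B4 arrays under the limit and came to 0.04 at a floor of 50.

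The genes around this set were read from 5 lists of 96 genes in all, chosen by function. On the arrays 56 of them were under the limit everywhere and 40 were tested. Between the subclones 9 were called higher in 1E8, 5 lower and 26 neither, beside 9.17% higher and 7.98% lower over all entries. Of the 9, CLDN11, MARVELD2, PARD6A, EHF and TCF4 were above the limit on 1E8 arrays only, like CLDN1 and CLDN3. Passing the filter that way favours a higher value in 1E8, so these calls are not separate evidence of a difference. Among the 8 list genes that passed so, 5 were called higher and 3 were not called. The share over all entries that passed so was not counted. Of the 28 list genes above the limit on all 6 arrays, 3 were called higher and 4 lower, with a median log2 difference of -0.05. Over all 8492 entries above it on all 6 arrays, the shares were 6.79% higher and 7.65% lower. With ATP, 0 of the 40 were called in any of the 4 contrasts or in the comparison of the ATP effects, where the smallest limma adjusted p was 0.158.

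Of 18 other claudins 13 were under the limit on every array and 5 were tested. CLDN11, known from myelin and testis, had 60.6, 43.9 and 27.0 in 1E8 and 24.5, 13.5 and 11.4 in 2B4, and was above the limit on the 1E8 control array alone, so no fold is given. CLDN15, a pore-forming claudin of the intestine, was higher in 1E8 by 0.53 ± 0.12 (limma adjusted p = 0.0289). CLDN12, CLDN14 and CLDND1 were not called, with differences of -0.10, -0.12 and -0.13.

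Among 25 tight junction and polarity genes 13 were tested, with 2 higher in 1E8, 2 lower and 9 not called. PARD6A, a subunit of the PAR polarity complex, had 63.0, 76.0 and 76.6 in 1E8 (control, 6 h and 12 h) and 14.8, 5.99 and 12.5 in 2B4. It was at least 1.52-fold higher in 1E8 by the limits of the 2B4 arrays, none of which it passed. MARVELD2, the tricellulin of three-cell contacts, had 51.5, 45.8 and 40.9 in 1E8 and 21.3, 23.8 and 29.6 in 2B4, and was above the limit on the 1E8 control array alone. PARD3, the scaffold of the same polarity complex, was lower by a log2 of -0.50 ± 0.14 with a limma adjusted p of 0.0497, and CXADR, a virus receptor of the junction, was at -0.49 (adjusted p = 0.0281).

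Of 17 adherens junction genes 10 were tested, with 3 higher in 1E8, 2 lower and 5 not called. CTNNA1, the alpha-catenin that PC-3 cells are known to lack, was below 0 on all 6 arrays, between -12.7 and -2.34. CTNNB1 (beta-catenin) was above the limit on all 6, between 77.9 and 93.3, and did not differ beyond the error of the fit (-0.07 ± 0.11, limma adjusted p = 0.671). CTNND1 (p120-catenin), at 20.0 to 30.1, and JUP (plakoglobin), at 7.71 to 20.5, were under the limit throughout. CDH2, the N-cadherin of mesenchymal cells, had 1700, 1839 and 1697 in 1E8 and 947, 1130 and 1162 in 2B4, a log2 difference of 0.69 ± 0.11 (limma adjusted p = 0.0102). CDH11, another mesenchymal cadherin, went the other way, with 30.04, 17.2 and 41.9 in 1E8 and 626, 1010 and 941 in 2B4. Its log2 difference was -4.27 ± 0.22 (limma adjusted p = 0.00016), and it rests on 1E8 values at or under the limit. The receptor phosphatase PTPRF was higher in 1E8 by 0.77 ± 0.10 (adjusted p = 0.00569), P-cadherin (CDH3) was higher by 0.49 (adjusted p = 0.0446) and the actin linker VCL (vinculin) was at -0.49 (adjusted p = 0.0255). MARVELD2, CXADR, CDH3 and VCL were named after their values were seen.

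Of 25 epithelial partners and proteases 17 were under the limit on every array. Among these were the protease inhibitor SPINT1, between -8.58 and 5.03, the splicing regulator ESRP1 (deposited as RBM35A), between 7.99 and 25.3, and GRHL2, a transcription factor that activates CDH1 and CLDN4, between -23.3 and -8.51. EHF, an ETS factor of epithelia, had intensities of 151, 131 and 112 in 1E8 and 11.8, 11.2 and 4.22 in 2B4. It was at least 2.78-fold higher in 1E8 by the limits of the 2B4 arrays. The other 7 tested genes were not called. SPINT2, which inhibits the protease matriptase that cleaves EPCAM, was at 0.34 ± 0.11 and was not called (adjusted p = 0.0703).

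Of 11 repressors of E-cadherin 7 were under the limit on every array, among them SNAI1 (-19.9 to -10.9), ZEB1 (-12.5 to -0.025) and ZEB2 (5.49 to 24.2). SNAI2 (Slug) had 151, 85.4 and 110 in 1E8 and 196, 175 and 204 in 2B4. It was lower in 1E8 by a log2 of -0.69 ± 0.14 (limma adjusted p = 0.0201). TCF4, a class I helix-loop-helix repressor, was at least 1.33-fold higher in 1E8 by the limits of the 2B4 arrays, all of which were above its values. TWIST1 (0.71, adjusted p = 0.0601) and TCF3 (-0.15, adjusted p = 0.475) were not called.

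**Figure D3:**
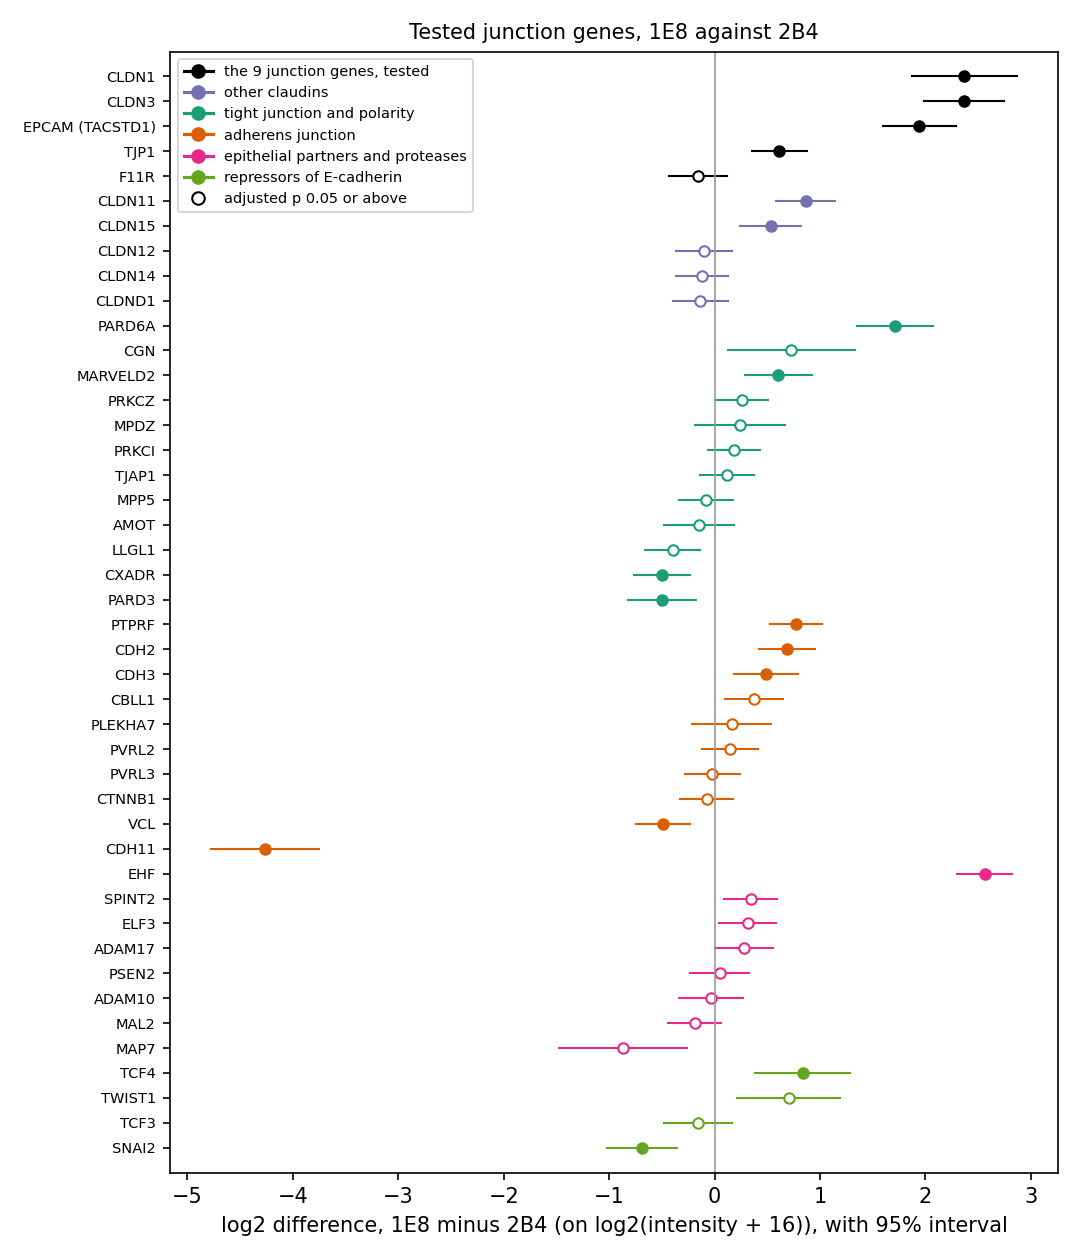
Log2 difference, 1E8 minus 2B4, of the 5 tested genes of the set and 39 of the 40 tested genes of the 5 lists, with the 95% interval of the fit over 6 arrays. Filled points have an adjusted p under 0.05. Of these, CLDN1, CLDN3, CLDN11, MARVELD2, PARD6A, EHF and TCF4 were above the limit on 1E8 arrays only, which favours a higher value in 1E8. CLDN1, CLDN3 and EPCAM lie between 1.94 and 2.37, EHF is at 2.56 and CDH11 at -4.27.

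Entries with the most similar course over the 6 arrays were found by the root mean square difference of log2 profiles, each centred on its own mean. For TACSTD1 these were MYH10 (0.09), PPIC (0.11) and COL4A1 (0.12). PPIC, the cyclophilin C gene, was the one of these above the limit on all 6 arrays, with 728, 660 and 671 in 1E8 (control, 6 h and 12 h) and 141, 164 and 205 in 2B4. MYH10, a nonmuscle myosin heavy chain, was above it on 1 array and the basement membrane collagen COL4A1 on 2. For CLDN1 the nearest were NLGN1 (0.20), COL4A1 (0.24) and LOC100133756 (0.26). For CDH1, whose values were all under the limit, they were LOC100130126 (0.10), LOC642828 (0.11) and MKL2 (0.11).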

How the data were processed

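The 6 Illumina bead arrays form 6 groups, named by sample title. Per the labels' protocols, Trizol RNA was cleaned on RNeasy columns and labelled as biotin cRNA with the TotalPrep kit. The deposited intensity values are linear; values below 0 on 24.0% to 25.5% of entries and array means of 193 to 194 show background subtraction and a common scale. Which software made them is not given in the sources used here. A table of signals described as not normalized has 6 signal columns that match no sample label and was not used, so the deposited values replaced the detection p-values as filter. The 3270 entries named by sequence clusters and 132 dimmer entries of a gene were left out. An entry was tested if above the limit on at least 1 array. Entry names matched 17757 current and 3303 older RefSeq symbols. limma 3.58.1 in R 4.3.3 gave additive contrasts (2 residual degrees of freedom) and a difference of ATP effects (1 residual degree of freedom). It was tested on simulated data. Named genes were all 9 genes, fixed members of the lists, the highest and lowest called gene of each list, and the 3 entries nearest to TACSTD1, CDH1 and CLDN1; MARVELD2, CXADR, CDH3, VCL, other uncalled list genes and the markers were added after their values were seen. The genes and lists were chosen with earlier results of these data known. No source used here gives slide or scan, so no batch was tested. Some genes of the lists are not reported here. The number of arrays limits the precision.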

Additional observations from a re-analysis of the deposited data

Results flagged for a closer look

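For all 3 genes of the set above the limit on all 6 arrays, the 1E8 and 2B4 arrays moved in opposite directions with ATP. Both ATP arrays of 1E8 moved one way from their shared control and both ATP arrays of 2B4 the other way. The share of all entries that did so was not counted. The difference of the ATP effects, 1E8 minus 2B4, was -0.49 on the log2 scale for TACSTD1, with log2 differences from control of -0.20 and -0.40 in 1E8 and 0.13 and 0.26 in 2B4 at 6 h and 12 h. It was -0.29 for F11R, with -0.13 and -0.24 in 1E8 and 0.15 and 0.06 in 2B4. It was 0.21 for TJP1, with 0.06 and 0.17 in 1E8 and -0.13 and -0.05 in 2B4. In limma none of the 3 differences passed (adjusted p = 0.283, 0.418 and 0.559). The directions of these 3 entries held with arrays scaled to the same median and after quantile normalization. With 1 array a group, ATP and array to array variation cannot be told apart here.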

How the results depend on the processing

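Of the 9 genes, 4 were called between the subclones. The count was 1 with intensities raised to a floor of 50 (622 of 11096 entries called, against 1903), 0 with no filter on dim entries (where limma called 0 of 30835 entries, 4567 at an unadjusted p under 0.05) and 2 with only entries above the limit on all 6 arrays, which leaves CLDN1 and CLDN3 untested. It was 4 with an offset of 50, either scaling, a mean-intensity trend, the ATP arrays only or the second EPCAM entry (added after seeing the data), and 3 to 4 without 1 array (920 to 2566 of all entries called). In these fits without 1 array TACSTD1 lay between 1.78 and 2.11, CLDN1 between 2.16 and 2.70 and CLDN3 between 2.17 and 2.55, all called. Each such fit leaves the other array of that condition fitted exactly. Leaving out either array of a condition thus gives the same difference between the subclones. The fit on the ATP arrays only repeats the fit without a control, so these are not separate checks. No gene of the set was called in an ATP contrast or in the difference of ATP effects under any alternative run; over all entries that difference was called for 1, but for 360 with the offset of 50, 284 of the 8492 entries measured on every array, 741 with the trend, 7 with arrays scaled to the same median and 0 after quantile normalization, at the floor of 50 or with no filter. Without 1 array, 0 to 57 of all entries were called for ATP against control. Signs turned for CLDN1 at 6 h (-0.40 to 0.23 without 1 array), and between the times (-0.95 to 0.044), and for CLDN3 at 6 h (-0.28 to 0.31 without 1 array, -0.11 at a floor of 50 and -0.032 at an offset of 50) and in the difference of ATP effects (0.044 at a floor of 50). For both times CLDN1 lay between -0.63 and 0.00 without 1 array. The cause was not tested. Leaving out an array was not run for the difference of ATP effects, since no residual degree of freedom remains. No paired analysis was possible because every group has only replicate 1, so that replicate numbers pair no arrays; the additive model itself matches the subclones by condition. Signal over background limits CDH1, OCLN, CLDN4 and CLDN7, and CLDN1 and CLDN3 in 2B4.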
